A study of Mus musculus with 12 samples.

Results

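Chemokines are small secreted or membrane-tethered proteins that direct the movement of leukocytes. This account covers the chemokine ligands and their receptors in mouse bone marrow cells carrying mutant SETBP1, mutant NRAS, both or neither. Members were chosen by gene symbol alone: every listed symbol that starts with Ccl, Cxcl, Cx3cl or Xcl followed by a digit was taken as a ligand, and every symbol that starts with Ccr, Cxcr, Cx3cr, Xcr or Ackr followed by a digit as a receptor. The rule found 61 of 19910 listed symbols, of which 38 were ligands and 23 receptors.

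RNA was sequenced from 12 libraries, 3 for each of 4 retroviral transductions of marrow from C57Bl/6 mice. The empty group received 2 control vectors. The SETBP1 group received SETBP1 (D868N) with a control vector, the NRAS group NRAS (G12D) with a control vector, and the group called both here received SETBP1 (D868N) with NRAS (G12D). All 4 groups therefore came from doubly transduced marrow, taken from female donors 6 to 10 weeks old, and the virus was packaged in 293T17 cells, a line of human embryonic kidney origin. The SETBP1 protein binds DNA in the nucleus, and the GTPase NRAS feeds the MAPK and PI3K pathways. By its title, the series concerns how mutant SETBP1 bears on the MAPK signalling driven by mutant NRAS. The labels call the cells murine leukemia cells. They do not state the promoter that drove each transgene, whether cells were grown in culture or in recipient mice, or whether the 3 replicates came from separate mice or transductions. The p-values below therefore measure only the spread between these libraries, which may be technical.

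Most chemokine receptors couple to inhibitory G proteins, and a bound receptor turns the cell towards higher ligand concentrations. In bone marrow, Cxcl12 made by stromal cells holds blood-forming cells and immature neutrophils through Cxcr4, ligands of Cxcr2 draw neutrophils out, and Ccl2 and its relatives draw monocytes out through Ccr2. Monocytes and macrophages are also a major source of the Ccl and Cxcl ligands, whose genes lie in clusters. Atypical receptors (Ackr) bind chemokines without classical G protein signalling and serve as scavengers or stores.

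Library totals ran from 7085894 to 8864919 counts, and from 11835 to 12800 genes had a count. Nras stood at 81.4 to 96.5 CPM, which scales counts to a common library total, in the 6 libraries without the NRAS vector and at 1393 to 1680 CPM in the 6 with it, while Setbp1 had 0 counts in the 6 libraries without the SETBP1 vector and 5 to 17 counts in those with it. Monocyte and macrophage markers were detected in each group, with none of 11 at 0 throughout. Markers of lymphoid cells were near background: the summed level of T and NK cell markers was at most 10.6 normalised CPM (CPM on library totals rescaled by TMM factors), with Cd3e, Cd8a and Ncr1 at 0 in every library, and that of B cell markers at most 4.06, with Pax5 at 0. Of 11 stroma and endothelium markers, Col3a1 and Pdgfra were at 0 in every library, while the list summed to 111 to 127 normalised CPM in the empty group, 82.7 to 91.8 with SETBP1, 186 to 290.3 with NRAS and 187 to 206 with both. SETBP1 replicate 3 stood apart from its group: its correlation across genes with the other SETBP1 libraries fell to 0.946, against 0.987 or more within the other groups, and it had the fewest genes with a count. Results that rest on it are given with and without it.

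Of the 38 ligands, 19 had enough counts to be tested, and so did 10 of the 23 receptors, 29 members in all. A further 22 members had at least 1 count but were under the filter, and 10 had no count in any library. These 10 were all ligands: Ccl11, Ccl20, Ccl21a, Ccl21b, Ccl21c, Ccl26, Ccl27b, Cxcl12, Cxcl13 and Xcl1. Cxcl12 is the stromal ligand of Cxcr4, and Ccl21 guides cells that carry Ccr7 into lymph nodes. Of the members under the filter, 8 reached 10 counts in some library. Ackr2, a scavenger of inflammatory Ccl ligands, had 65 counts in SETBP1 replicate 3 and at most 2 elsewhere. The same library held the highest counts of Xcr1, a dendritic cell receptor (24 counts), Cxcl9, an interferon-inducible ligand of Cxcr3 (17), and Cxcl14 (14). Cxcr5, the receptor for Cxcl13, peaked at 15 counts, Ccr3, the eotaxin receptor, at 13, and Ccl27a, a ligand of Ccr10, at 10. Cxcl1, a neutrophil attractant, had 0, 0 and 0 counts in the empty libraries, 2, 3 and 24 with SETBP1, 3, 4 and 2 with NRAS, and 8, 4 and 24 with both. Under other edgeR settings, some of these members were tested. Cxcl1 then passed for both against empty in 11 settings (adjusted p 0.00389 to 0.0316) and for SETBP1 against empty in 4 (0.0152 to 0.0469). Xcr1 passed for SETBP1 against empty in 8 (0.0114 to 0.0456) and for both against SETBP1 in 3 (0.0238 to 0.0454). Ackr2 passed for both against SETBP1 in 1 (0.0126), with no low-count filter. Cxcl1 reached 10 counts only in SETBP1 replicate 3 and SETBP1+NRAS replicate 3, Xcr1 only in SETBP1 libraries and Ackr2 only in SETBP1 replicate 3. A filter passes them only through the side where they are high, which favours these calls. The settings share libraries, so the number of settings is not independent support.

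Added over all 38, ligand transcripts made up 0.245% to 0.287% of a library's counts in the empty group, 0.332% to 0.534% with SETBP1, 0.679% to 0.755% with NRAS and 0.943% to 1.15% with both. The 4 groups did not overlap in this sum. In the empty group Ccl6 alone held 72.7% to 73.5% of ligand counts, and with both mutants it held 22.6% to 25.5%. Ccl2 went the other way, from 2.87% to 3.57% of ligand counts in the empty group up to 19.3% to 21.6% with both, and Ccl4 from 0.424% to 0.622% up to 9.91% to 10.6%. The 23 receptors summed to 672 to 774 normalised CPM in the empty group, 703 to 752 with SETBP1, 844 to 925 with NRAS and 987 to 1030 with both. In a bulk library, fewer cells of a type and less RNA per cell cannot be told apart. The summed monocyte and macrophage markers were at 4179 to 4599 normalised CPM in the empty group, 4830 to 6580 with SETBP1, 3822 to 4240 with NRAS and 3622 to 4075 with both. The ranges with NRAS and with both overlapped. Taken gene by gene in edgeR's test, 4 of the 11 markers were higher with both than in the empty group (20.8% of all genes) and 2 lower (19.8%), at an adjusted p under 0.05. The part of these markers in the ligand sums was not tested. Neutrophil markers summed to 11172 to 12592 in the empty group and 1969 to 2469 with both.

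**Figure D1:**
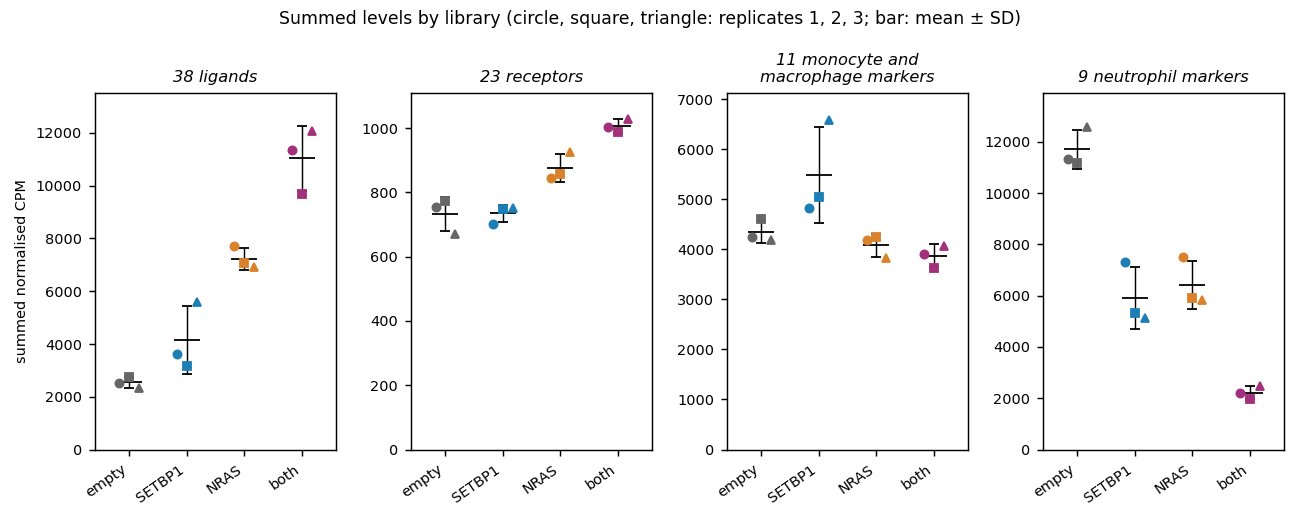
Summed normalised CPM of the 38 ligands, the 23 receptors, 11 monocyte and macrophage markers and 9 neutrophil markers in each of the 12 libraries (vertical axes, each from 0); symbols are replicates and bars the mean ± SD of 3 libraries. Ligand sums rise from 2342 to 2760 in the empty group to 9680 to 12072 with both mutants. Neutrophil marker sums fall from 11172 to 12592 in the empty group to 1969 to 2469 with both.

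Mutant NRAS alone was compared with the empty group to see which chemokine genes changed with this oncogene. Monocyte attractants (Ccl2, Ccl7, Ccl12), macrophage inflammatory proteins (Ccl3, Ccl4, Ccl9), neutrophil attractants (Cxcl2, Cxcl3), Cxcl10 and Cx3cl1 rose, and Cxcl16 fell. Among receptors, Ccr1 and Cxcr2 were among the 3 that rose, while Ccr2, Cxcr4 and Cx3cr1 fell. In all, 17 of the 29 members tested passed an adjusted p of 0.05 in edgeR's quasi-likelihood test, where 32.5% of all 10993 genes tested did. Of these, 13 were higher (17% of all genes) and 4 lower (15.5%). Cx3cl1 among the former and Cx3cr1 among the latter passed the low-count filter only through the side where they were high. The 19 ligands tested had a median log2 change of 1.75 and the 10 receptors -0.58, against -0.01 over all genes. Of the monocyte and macrophage markers, 2 of 11 were higher and 4 lower in the same comparison. Of the neutrophil markers 1 of 9 was higher and 5 lower, and of the early granule and progenitor markers 1 of 6 was higher and 5 lower. All 7 mast cell and basophil markers tested were lower, with the list's sum going from 2733 to 2842 normalised CPM in the empty group to 401 to 689 with NRAS. Of the stroma and endothelium markers tested 3 (Pdgfrb, Pecam1 and Kdr) were higher and 1 (Vwf) lower. The part of these markers in the result was not tested.

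Mutant SETBP1 alone was compared with the same empty libraries. Ccl2, Ccl7, Ccl12, Ccl3, Ccl4, Ccl5, Ccl9, Cxcl2, Cxcl3, Cxcl10 and Cxcl16 rose and Ccl24 fell, 12 of 19 tested, while 0 of 10 receptors passed in edgeR's test, 2 of them with an unadjusted p under 0.05. DESeq2 called 1 receptor (Cxcr4, lower) and limma-voom 2 (Cxcr4 and Ccr7, both lower). Without SETBP1 replicate 1, edgeR called 3 receptors (Cxcr2 and Cxcr4 lower, Xcr1 higher), and without SETBP1 replicate 2 it called Ccr7, lower. Xcr1, under the main filter, was also called with no low-count filter and without any 1 of the libraries with NRAS. Xcr1 reached 10 counts only in SETBP1 libraries, so a filter passes it only through the side where it is high. The difference between ligands and receptors was not tested. The 12 members called compare with 14.9% of all genes, the 11 that rose with 8.31% and the 1 that fell with 6.55%. The median log2 change of the 19 ligands was 1.52, that of the 10 receptors -0.01 and that of all genes -0.01. Without SETBP1 replicate 3, all 12 calls were kept and Ccr1 joined them, with a fall of 0.28 (SE 0.07, adjusted p 0.0104) on the log2 scale. In this comparison 7 of 11 monocyte and macrophage markers were higher and 0 lower, with summed levels that did not overlap, and 8 of 9 neutrophil markers were lower. The part of these markers in the ligand changes was not tested.

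Both mutants were compared with NRAS alone to see what SETBP1 adds. Ccl12, Ccl9 and Ccr2 were higher and Cxcr2 and Cxcr4 lower, 5 of the 29 members in edgeR's test, where 1.91% of all genes passed. The 3 higher members compare with 0.528% of all genes and the 2 lower with 1.38%. The median log2 change was 0.60 for the 19 ligands tested, -0.37 for the 10 receptors and 0.00 for all genes. The count depended on the tool and on the libraries that set the spread. With all 12 libraries, DESeq2 called 3 ligands and 4 receptors, and limma-voom 4 ligands and 3 receptors. The shares of all genes in these tools are not given here. Without SETBP1 replicate 3, which belongs to neither group, edgeR's count was 13 (7.52% of all genes). The 8 added, all higher, included the ligands Ccl2, Ccl7, Ccl3, Ccl4, Cxcl2, Cxcl3 and Cxcl16. Leaving out any 1 of the 6 libraries compared left 2 or 3 calls. Here 5 of 11 monocyte and macrophage markers were higher and 1 lower, and 7 of 9 neutrophil markers were lower; their part in the result was not tested.

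Both mutants were also compared with SETBP1 alone and with the empty group. Against SETBP1 alone, 18 of 29 members passed (42.4% of all genes), 13 higher (20.9%) and 5 lower (21.5%). Against the empty group, 19 passed (40.6%), 15 higher (20.8%) and 4 lower (19.8%), and all 13 ligands among them were higher. Both counts include Ccl8, Cx3cl1, Ccr10 and Cx3cr1, which passed the low-count filter only through the side where they were high. Without SETBP1 replicate 3 the same 19 passed against the empty group, while against SETBP1 alone 20 did, 17 of them shared, with Ccl6, Ccr7 and Cxcl10 gained and Ccr10 lost. Each of these 5 comparisons shares a group of libraries with others among them, so their values for a gene are not independent of each other.

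Whether the SETBP1 change differed with NRAS was tested as an interaction: the log2 change of both against NRAS minus that of SETBP1 against empty. None of the 29 members passed in edgeR's test (0 of 29), where 0.0455% of all genes did, 0.0091% with a positive and 0.0364% with a negative term. An unadjusted p under 0.05 was found for 11 members, 10 of them ligands, and for 1420 of all 10993 genes (12.9%); DESeq2 called 2 (Ccl3 and Ccl24) and limma-voom 0. For 9 of those 11 the term was negative, meaning a lower SETBP1 change when NRAS was present, as for Ccl2 (-1.63, SE 0.38, adjusted p 0.178). The term was positive for Ccl24 (1.69, SE 0.41, adjusted p 0.178) and Ccr2 (0.46, SE 0.13, adjusted p 0.218). Without SETBP1 replicate 3, 4 members passed (0.99% of all genes): Ccl2 at -1.08 (adjusted p 0.000937), Ccl4 at -0.86 (0.0158), Cxcl10 at -1.54 (0.0184) and Ccl24 at 1.47 (0.0427).

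**Figure D2:**
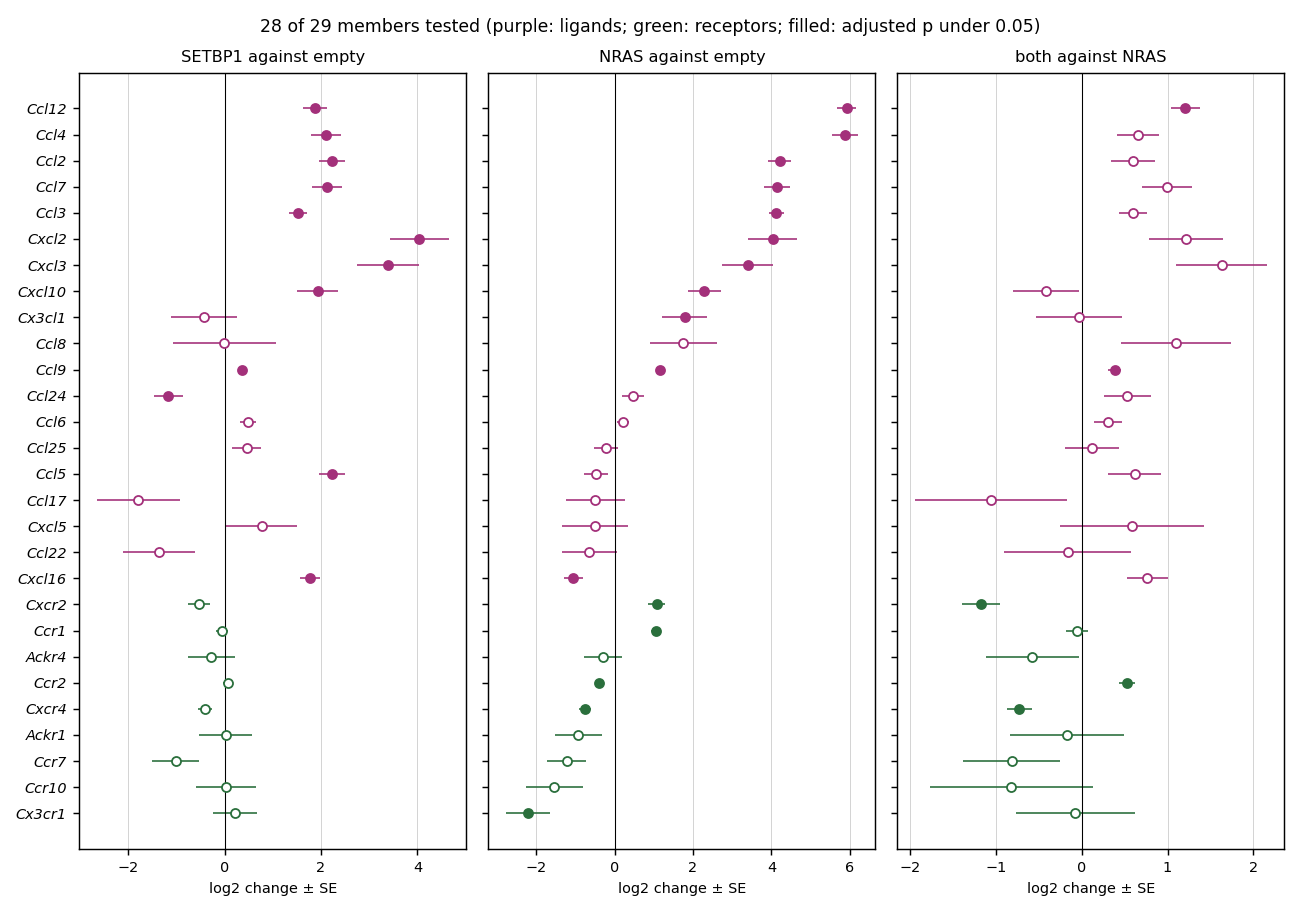
Log2 change ± SE of 28 of the 29 members tested in 3 comparisons (horizontal axes; edgeR), ligands in purple above receptors in green, with filled points past an adjusted p of 0.05. Most filled points lie to the right of 0 among ligands, with 11 of 12 for SETBP1 and 10 of 11 for NRAS, while 2 of the receptors drawn rose and 3 fell with NRAS.

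The monocyte chemoattractants Ccl2, Ccl7 and Ccl12, which act through Ccr2, rose with each mutant. Ccl2 was at 74.3, 98.5 and 67.2 normalised CPM in the empty libraries, at 266, 247 and 613 with SETBP1, at 1615, 1506 and 1323 with NRAS, and at 2309, 2086 and 2325 with both. No 2 groups overlapped, and SETBP1 replicate 3 was more than 2-fold above the rest of its group. The log2 change was 2.23 for SETBP1 (SE 0.28, adjusted p 0.000828) and 4.21 for NRAS (SE 0.30, adjusted p 2.11e-07), each against empty. Without SETBP1 replicate 3 the SETBP1 change was 1.68. Against NRAS alone, both mutants together gave 0.60 (SE 0.26, adjusted p 0.374), and 0.000295 without SETBP1 replicate 3.

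Ccl7, a close relative, followed the same order, with 51.1, 68.3 and 49.0 normalised CPM in the empty libraries, 172, 143 and 421 with SETBP1, 1176, 931 and 859 with NRAS, and 2048, 1871 and 2007 with both. Again the 4 groups did not overlap. Its log2 change was 2.13 for SETBP1 (SE 0.32, adjusted p 0.00205; 1.49 without replicate 3), 4.14 for NRAS (SE 0.34, adjusted p 7.44e-07) and 1.00 for both against NRAS (SE 0.29, adjusted p 0.12). The last passed in 4 other settings (adjusted p 4.23e-06 to 0.0481), among them limma-voom and the edgeR fit without SETBP1 replicate 3.

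Ccl12 was at 6.20, 6.48 and 4.18 normalised CPM in the empty libraries, 15.8, 20.0 and 26.3 with SETBP1, 408, 340.3 and 278 with NRAS, and 823, 649 and 896 with both. It rose with NRAS by a log2 change of 5.91 (SE 0.23, adjusted p 5.82e-10), and it rose by 1.87 with SETBP1 (SE 0.25, adjusted p 0.00121). It also rose from NRAS to both, by 1.21 (SE 0.17, adjusted p 0.00224), a call kept in all 20 other settings run.

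Ccl8, the last monocyte chemoattractant of this cluster that was tested, was barely detected, with 0.221, 0.127 and 0.405 normalised CPM in the empty libraries, 0.482, 0.261 and 0 with SETBP1, 0.396, 0.812 and 1.39 with NRAS, and 1.96, 0.768 and 2.96 with both. It passed for both against SETBP1 (log2 2.86, SE 0.78, adjusted p 0.00955) and both against empty (2.85, SE 0.78, adjusted p 0.00949). Neither call held without SETBP1+NRAS replicate 3 (adjusted p 0.0523 and 0.0544). Ccl8 reached 10 counts only in libraries with NRAS, so the low-count filter passed it only through that side, which favours both calls.

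Ccl3 and Ccl4 encode macrophage inflammatory proteins, which attract monocytes and lymphocytes, and Ccl3 also acts on Ccr1 and restrains blood-forming stem cells. Ccl3 was at 20.2, 19.9 and 19.8 normalised CPM in the empty libraries, 57.8, 38.3 and 75.8 with SETBP1, 324, 344 and 377 with NRAS, and 538, 467 and 578 with both. Ccl4 was at 10.7, 11.8 and 14.6 in the empty libraries, 37.8, 32.7 and 87.6 with SETBP1, 698, 735 and 743 with NRAS, and 1198, 959 and 1278 with both. For each gene the 4 groups stood apart without overlap. Ccl3 rose by 1.52 with SETBP1 (SE 0.19, adjusted p 0.000828) and by 4.12 with NRAS (SE 0.19, adjusted p 4.28e-09). Ccl4 rose by 2.10 (SE 0.31, adjusted p 0.00205; 1.52 without SETBP1 replicate 3) and by 5.88 (SE 0.32, adjusted p 1.78e-08). Between NRAS and both, the changes were 0.60 for Ccl3 (SE 0.16, adjusted p 0.086) and 0.66 for Ccl4 (SE 0.25, adjusted p 0.264), and they passed without SETBP1 replicate 3 (0.000378 and 4.1e-05). In all, Ccl3 passed in 6 other settings, among them DESeq2 (adjusted p 0.0263) and limma-voom (adjusted p 0.03755).

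Ccl6 and Ccl9 are Ccr1 ligands made by myeloid cells in the mouse. Ccl6 was abundant in each library, at 1856, 2006 and 1722 normalised CPM in the empty group, 2364, 2013 and 3446 with SETBP1, 2283, 2025 and 2161 with NRAS, and 2732, 2184 and 3078 with both. The groups lay close together, though every library with a mutant was above the empty ones. In the main fit Ccl6 passed only for both against empty (log2 0.52, SE 0.16, adjusted p 0.0217). That call was lost without empty replicate 1 or 3 or SETBP1+NRAS replicate 1 or 3 (adjusted p up to 0.101). For SETBP1 against empty it passed in 4 other settings: DESeq2, no low-count filter, and without SETBP1 replicate 1 or 2 (adjusted p 0.0219 to 0.0404). It also passed for NRAS with only the groups compared (0.017) and for both against SETBP1 without SETBP1 replicate 3 (0.033). Ccl9 moved in small steps with little spread, from 431, 469.99 and 397 in the empty libraries to 582, 549 and 541 with SETBP1, 954, 973 and 988 with NRAS, and 1299, 1150.3 and 1357 with both. Its log2 changes were 0.37 for SETBP1 (SE 0.08, adjusted p 0.0109), 1.17 for NRAS (SE 0.08, adjusted p 1.32e-07) and 0.39 for both against NRAS (SE 0.08, adjusted p 0.0221). The first was lost without empty replicate 3 and with only the groups compared in the fit (adjusted p up to 0.084). The last was lost without any 1 of the NRAS libraries or SETBP1+NRAS replicate 1 or 3 and with the replicate block (adjusted p up to 0.121).

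Ccl5, another ligand of Ccr1, rose with SETBP1 alone. It was at 3.43, 6.22 and 5.94 normalised CPM in the empty libraries, 17.1, 24.3 and 31.1 with SETBP1, 3.04, 4.87 and 3.30 with NRAS, and 5.59, 5.12 and 6.46 with both. The 3 SETBP1 libraries lay above all 9 others. The log2 change was 2.23 for SETBP1 against empty (SE 0.27, adjusted p 0.000818) and -2.08 for both against SETBP1 (SE 0.27, adjusted p 4.51e-05). For NRAS it was -0.47 (SE 0.31, adjusted p 0.274), and the interaction term was -1.61 (SE 0.41, adjusted p 0.206).

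Cxcl16, a membrane-tethered ligand of Cxcr6, had the same outline, at 7.97, 8.38 and 8.23 normalised CPM in the empty libraries, 25.3, 24.0 and 34.4 with SETBP1, 4.76, 4.06 and 3.04 with NRAS, and 6.99, 5.12 and 8.07 with both. Here too the SETBP1 libraries lay above the rest. It rose with SETBP1 by 1.77 (SE 0.21, adjusted p 0.000709) and fell with NRAS by 1.05 (SE 0.24, adjusted p 0.00381). In the annotation, 18.3% of its exonic bases also lie in exons of Zmynd15, and no strand rule is given in the sources used here, so some reads may belong to that gene.

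**Figure D3:**
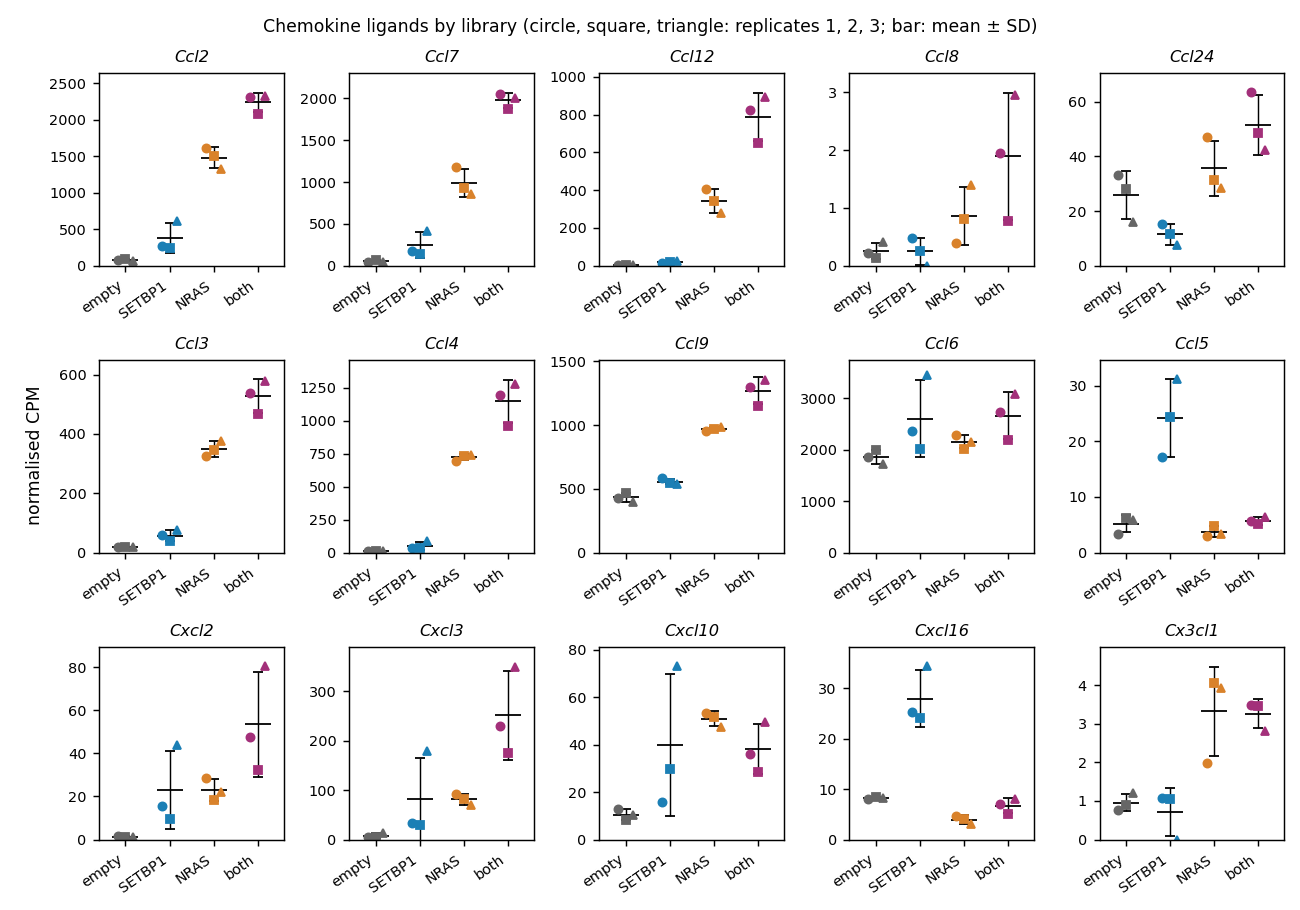
Normalised CPM (vertical axes, each from 0) of the 15 ligands past the threshold in at least 1 comparison, by library; symbols are replicates and bars the mean ± SD of 3 libraries, cut at 0. Ccl2, Ccl7, Ccl12, Ccl3, Ccl4 and Ccl9 climb from empty to both, while Ccl5 and Cxcl16 are highest with SETBP1 alone, as in 17.1 to 31.1 for Ccl5.

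These Ccl genes lie in 2 clusters on chromosome 11 (GRCm38). The first spans 270.1 kb and runs from Ccl2 (chr11:82035571-82037453, plus strand) through Ccl7 (chr11:82045712-82047525), Ccl11, Ccl12 (chr11:82101845-82103400) and Ccl8 (chr11:82115185-82116799) to Ccl1. The second starts 1220.1 kb further on and spans 138.9 kb, from Ccl5 (chr11:83525778-83530518, minus strand) through Ccl9 (chr11:83572919-83578636), Ccl6 (chr11:83587882-83593087) and Ccl3 (chr11:83647844-83649355) to Ccl4 (chr11:83662584-83664683, plus strand). Some neighbours, such as Ccl2 and Ccl7, had similar changes, and others did not. Ccl11, between Ccl7 and Ccl12, had 0 counts in every library, Ccl1 at most 3, and Ccl6, between Ccl9 and Ccl3, changed by 0.21 with NRAS (SE 0.16, adjusted p 0.351).

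**Figure D4:**
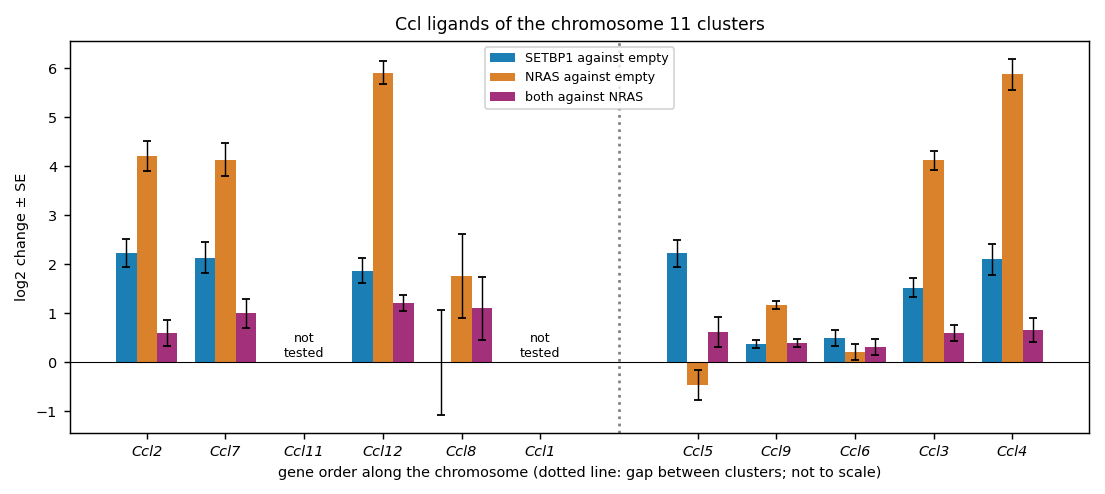
Log2 change ± SE (vertical axis; edgeR) of the Ccl ligands in their order along chromosome 11, in 3 comparisons; the dotted line marks the gap between clusters and the horizontal axis is not to scale. NRAS bars are tall for Ccl2, Ccl7, Ccl12, Ccl3 and Ccl4 (4.12 to 5.91) and short or negative for Ccl5 and Ccl6.

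Cxcl2 and Cxcl3 attract neutrophils through Cxcr2 and lie near Cxcl1 on chromosome 5. Their promoters are shown because Cxcl2 and Cxcl3 rose in the same comparisons and all 3 windows hold the same motif. Each line gives the 150 bases before the RefSeq start (GRCm38.p6, plus strand), with matches to the NF-kB pattern GGGNNTTTCC and to TATAAA, the core of a TATA box, in capitals; the windows are chr5:90891095-90891244 for Cxcl1, chr5:90903749-90903898 for Cxcl2 and chr5:90785951-90786100 for Cxcl3.
Cxcl1: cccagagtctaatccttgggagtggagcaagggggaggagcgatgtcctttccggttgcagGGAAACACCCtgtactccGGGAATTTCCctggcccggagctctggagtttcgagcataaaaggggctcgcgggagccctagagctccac
Cxcl2: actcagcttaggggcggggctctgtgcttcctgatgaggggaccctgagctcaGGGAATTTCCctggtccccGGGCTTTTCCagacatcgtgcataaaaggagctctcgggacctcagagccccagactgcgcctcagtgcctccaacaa
Cxcl3: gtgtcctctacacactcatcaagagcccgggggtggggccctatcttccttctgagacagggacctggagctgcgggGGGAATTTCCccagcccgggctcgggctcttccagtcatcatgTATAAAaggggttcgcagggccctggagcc
The letters GGGAATTTCC ended 62 bases before the start in Cxcl1, 88 in Cxcl2 and 64 in Cxcl3. For Cxcl2 the GENCODE gene start (chr5:90903871) lies inside the window, so this distance depends on the annotation. Cxcl2 held a second match, GGGCTTTTCC, ending 69 bases before the start, and Cxcl1 one on the other strand, GGAAACACCC, ending 80 bases before it. Over 250 bases and both strands, the NF-kB pattern was found in 1.4% of 27025 RefSeq promoters and in 6 of the 46 members with an entry (13%): Cxcl1, Cxcl2, Cxcl3, Ccl9, Ccl20 and Ccr3. Members without an entry, which these counts leave out, include Ccl2, Ccl4, Ccl5, Ccl7, Ccl11, Ccl21c, Ccl24, Ccl26, Cxcl5, Cxcl16, Cxcl17, Ccr7, Ccr10 and Cxcr5. Of the 6 with a match, Ccl20 had no count in any library, and Cxcl1 and Ccr3 were under the filter. Ccl3, Ccl12, Cxcl10 and Cx3cl1 had an entry and rose with NRAS but held no match to the NF-kB pattern. AP-1 (TGANTCA) was found in 6.87% of all promoters and 4 of the 46, CRE (TGACGTCA) in 1.62% and 0 of the 46, the interferon element (GAAANNGAAA) in 3.04% and 3 of the 46, and TATAAA in 13% and 13 of the 46. These motifs were searched after the values had been seen. A match describes letters only, and binding was not measured.

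Cxcl2 (chr5:90903871-90905938) was at 1.66, 1.40 and 1.08 normalised CPM in the empty libraries, 15.7, 9.54 and 43.9 with SETBP1, 28.4, 18.5 and 22.1 with NRAS, and 47.7, 32.3 and 80.5 with both. Cxcl3 (chr5:90786103-90789600) was at 5.75, 4.83 and 13.0 in the empty libraries, 34.2, 29.8 and 179 with SETBP1, 91.3, 81.4 and 70.6 with NRAS, and 229, 174 and 349.7 with both. Every library with a mutant lay above the empty libraries for both genes, and SETBP1 replicate 3 overlapped the group with both mutants. Cxcl2 rose by 4.04 with SETBP1 (SE 0.61, adjusted p 0.00236; 3.17 without replicate 3) and by 4.03 with NRAS (SE 0.62, adjusted p 0.000219). Cxcl3 rose by 3.39 with each, with an adjusted p of 0.00645 for SETBP1 (SE 0.65; 2.06 without replicate 3) and 0.00123 for NRAS (SE 0.65). The SETBP1 call of Cxcl3 was lost with only the groups compared in the fit (adjusted p 0.078). From NRAS to both, the changes were 1.22 for Cxcl2 (SE 0.43, adjusted p 0.233) and 1.63 for Cxcl3 (SE 0.53, adjusted p 0.171), and both passed without SETBP1 replicate 3 (0.00271 and 2.39e-05). Both against SETBP1, Cxcl2 changed by 1.21 (SE 0.43, adjusted p 0.0372), a call lost in 10 of 20 other settings, and Cxcl3 by 1.63 (SE 0.53, adjusted p 0.0234), lost in 4, with overlapping groups in each case. Without SETBP1 replicate 3 these changes were 2.08 for Cxcl2 (adjusted p 1.13e-05) and 2.97 for Cxcl3 (adjusted p 1.37e-08). Of the 50-base stretches of their transcripts, 5.84% in Cxcl2 and 3.51% in Cxcl3 are shared between them, so a small part of their reads may be split.

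Cxcl10 (chr5:92346638-92348889), an interferon-inducible ligand of Cxcr3, was at 12.7, 8.13 and 10.3 normalised CPM in the empty libraries, 15.9, 29.8 and 73.2 with SETBP1, 53.4, 51.7 and 47.3 with NRAS, and 36.1, 28.5 and 49.6 with both. It rose with NRAS by 2.28 (SE 0.43, adjusted p 0.00102) and with SETBP1 by 1.93 (SE 0.43, adjusted p 0.0123; 1.12 without replicate 3), and the group with both mutants overlapped both single-mutant groups. The SETBP1 call was lost without empty replicate 3 and with only the groups compared (adjusted p up to 0.0922).

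Ccl24 (chr5:135569937-135573049), an eosinophil attractant that binds Ccr3, was the ligand that fell with SETBP1. Its levels were 33.2, 27.9 and 16.1 normalised CPM in the empty libraries, 15.4, 11.5 and 7.69 with SETBP1, 47.0, 31.4 and 28.4 with NRAS, and 63.6, 48.5 and 42.2 with both. SETBP1 lay below every other library, by a narrow margin to empty replicate 3. The log2 change was -1.16 for SETBP1 (SE 0.30, adjusted p 0.0232), lost without empty replicate 1 or 2 or SETBP1 replicate 2 and with only the groups compared (adjusted p up to 0.108). With both mutants it was above SETBP1 by 2.16 (SE 0.30, adjusted p 7.03e-05) and above empty by 0.99 (SE 0.28, adjusted p 0.0113). The second call was lost without empty replicate 3 or SETBP1+NRAS replicate 1 (adjusted p up to 0.0589).

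Cx3cl1, the membrane-tethered ligand of Cx3cr1, was low throughout, at 0.774, 0.889 and 1.21 normalised CPM in the empty libraries, 1.08, 1.05 and 0 with SETBP1, 1.98, 4.06 and 3.93 with NRAS, and 3.50, 3.46 and 2.83 with both. All 6 libraries with NRAS lay above the other 6. The NRAS change of 1.79 (SE 0.57, adjusted p 0.0282) was lost with limma-voom and without any 1 of the empty libraries, NRAS replicate 2 or NRAS replicate 3 (adjusted p up to 0.106). Cx3cl1 reached 10 counts only in libraries with NRAS, so the low-count filter passed it only through that side, which favours this call. The remaining ligands tested passed in none of the 6 comparisons: the Ccr4 ligands Ccl17 (0 to 2.16 normalised CPM) and Ccl22, the Ccr9 ligand Ccl25 and the neutrophil attractant Cxcl5 (0.128 to 3.67). Their lowest adjusted p was 0.161, 0.215, 0.149 and 0.482, in that order. Ccl22 was at 5.97, 10.9 and 5.67 normalised CPM in the empty libraries, 5.66, 3.01 and 0.118 with SETBP1, 3.17, 5.68 and 5.58 with NRAS, and 4.34, 7.81 and 0.673 with both. Ccl25 was at 3.98, 6.73 and 3.51 in the empty libraries, 5.06, 5.88 and 8.64 with SETBP1, 4.23, 4.60 and 3.42 with NRAS, and 4.76, 4.86 and 3.63 with both. For Ccl22 the SETBP1 libraries lay just below the empty ones, with SETBP1 replicate 3 the lowest of all, and for Ccl25 they lay above those with NRAS and those with both.

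Levels of different genes were compared per kilobase of annotated exon, in mean normalised CPM per kb ± SD of 3 libraries. In the empty group Ccl6 led at 1037 ± 79.1, followed by Ccl9 at 142 ± 11.99, and Ccl2 (70.3 ± 14.4) and Ccl7 (70.1 ± 13.2) did not differ beyond their spread. With SETBP1, Ccl6 was at 1453 ± 416, with Ccl2 at 329 ± 181 and Ccl7 at 306 ± 190 next. With NRAS, Ccl2 (1302 ± 129), Ccl7 (1234 ± 208) and Ccl6 (1201 ± 71.9) lay within their spread of each other. Ccl4 (1099 ± 36.6) came next, below Ccl2 by more than their spread. With both mutants Ccl7 was first at 2466 ± 115, then Ccl2 at 1968 ± 117 and Ccl4 at 1735 ± 251, and Ccl6 (1485 ± 251) and Ccl12 (1470 ± 236) were level. Among receptors, Ccr2 (63.0 ± 7.79) and Ccr1 (62.9 ± 1.68) were level in the empty group, and with NRAS Ccr1 stood at 130 ± 2.29 against 47.6 ± 3.33 for Ccr2.

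Ccr1, a receptor for Ccl3, Ccl5, Ccl6 and Ccl9, was higher in the libraries with NRAS. Ccr1 (chr9:123962124-123968692, minus strand) was at 178, 173 and 183 normalised CPM in the empty libraries, 151, 143 and 222 with SETBP1, 371, 362 and 374 with NRAS, and 347, 338 and 382 with both. All 6 libraries with NRAS lay above the other 6. Ccr1 rose by 1.05 (SE 0.13, adjusted p 3.06e-05) with NRAS. From NRAS to both, Ccr1 changed by -0.05 (adjusted p 0.958).

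Ccr2 (chr9:124101950-124113557, plus strand), the receptor that brings monocytes out of the marrow, was at 437, 472 and 368 normalised CPM in the empty libraries, 427, 485 and 421 with SETBP1, 306, 312 and 348 with NRAS, and 463, 472 and 455 with both. The NRAS libraries were the lowest, and the group with both mutants was back in the range of the empty group. The log2 change was -0.40 for NRAS against empty (SE 0.09, adjusted p 0.00408) and 0.53 for both against NRAS (SE 0.09, adjusted p 0.00852), the latter lost without NRAS replicate 2 (adjusted p 0.0536). Its ligands Ccl2, Ccl7 and Ccl12 were higher with NRAS alone, where the receptor was lower. Their means were higher still with both mutants, where Ccr2 did not pass against empty in edgeR's test (log2 0.12, adjusted p 0.312). They also rose with SETBP1, where Ccr2 changed by 0.06 (adjusted p 0.659). A link between ligands and receptor was not tested.

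Cxcr2 (chr1:74153989-74161246), the neutrophil receptor for Cxcl1, Cxcl2 and Cxcl3, was at 19.4, 16.1 and 24.0 normalised CPM in the empty libraries, 18.9, 12.7 and 9.58 with SETBP1, 34.1, 43.2 and 48.2 with NRAS, and 18.3, 16.9 and 20.3 with both. Only the NRAS group stood apart, above all 9 other libraries. Cxcr2 rose with NRAS by 1.08 (SE 0.22, adjusted p 0.00187) and was lower in both than in NRAS by a log2 change of -1.18 (SE 0.22, adjusted p 0.0132), lost without NRAS replicate 2 or 3 or SETBP1+NRAS replicate 1 or 2 (adjusted p up to 0.0809). Neutrophil markers summed to 5820 to 7489 normalised CPM with NRAS, 1969 to 2469 with both and 11172 to 12592 in the empty group. The markers did not all move alike: with NRAS, Mmp9 rose by 0.96 (SE 0.24, adjusted p 0.00809), while Retnlg changed by 0.02 (adjusted p 0.972). From NRAS to both, Retnlg fell by 2.71 (SE 0.39, adjusted p 0.00259) and Mmp9 changed by -0.94 (adjusted p 0.0761). Their part in the changes of Cxcr2 was not tested.

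Cxcr4 (chr1:128588199-128592293), which holds cells in the marrow, was lower in each group than in the one before it, at 35.5, 34.5 and 32.1 normalised CPM in the empty libraries, 28.4, 25.0 and 23.7 with SETBP1, 20.9, 17.5 and 22.2 with NRAS, and 13.4, 12.9 and 10.2 with both. No 2 groups overlapped. The log2 change was -0.76 for NRAS (SE 0.14, adjusted p 0.00104), -0.41 for SETBP1 (SE 0.14, adjusted p 0.0624), -0.73 for both against NRAS (SE 0.15, adjusted p 0.0243) and -1.48 for both against empty (SE 0.15, adjusted p 3.01e-06). The call against NRAS was lost without NRAS replicate 1 or 3 or any 1 of the libraries with both mutants (adjusted p up to 0.122). Summed early granule and progenitor markers also fell across the groups, from 23688 to 26312 normalised CPM in the empty group to 17458 to 19298 with SETBP1, 9508 to 10874 with NRAS and 5494 to 6141 with both, and their part in the result was not tested.

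Cx3cr1, the fractalkine receptor of monocytes, was at 4.09, 1.52 and 3.64 normalised CPM in the empty libraries, 4.46, 3.27 and 3.08 with SETBP1, 0.925, 0.406 and 0.634 with NRAS, and 0.559, 1.15 and 0.135 with both. All 6 libraries with NRAS lay below the other 6. It fell with NRAS by 2.21 (SE 0.56, adjusted p 0.00771), while its ligand Cx3cl1 rose. The receptor reached 10 counts only in libraries without NRAS and the ligand only in those with it. The low-count filter thus passed each only through its high side, which favours both calls. Ccr7, the lymph node homing receptor, was at 13.1, 11.9 and 9.72 in the empty libraries, 4.21, 11.6 and 1.54 with SETBP1, 2.77, 6.49 and 5.58 with NRAS, and 2.10, 3.58 and 2.69 with both. It passed for both against empty (log2 -2.04, SE 0.53, adjusted p 0.00731), and missed the threshold for NRAS against empty (-1.23, SE 0.50, adjusted p 0.0757). The second passed in 5 other settings: limma-voom, the replicate block, only the groups compared, and without SETBP1 replicate 2 or 3 (adjusted p 0.000598 to 0.0491).

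Ccr10, the receptor for Ccl27 and Ccl28, was near the limit of detection, at 1.11, 0.889 and 3.10 normalised CPM in the empty libraries, 1.45, 1.18 and 2.48 with SETBP1, 0.661, 0.135 and 0.887 with NRAS, and 0.559, 0 and 0.404 with both. Its calls for both against SETBP1 (log2 -2.39, SE 0.81, adjusted p 0.0289) and against empty (-2.36, SE 0.81, adjusted p 0.0319) were each lost without SETBP1+NRAS replicate 2 or 3. The first was also lost without SETBP1 replicate 3, and the second without empty replicate 3. Ccr10 reached 10 counts only in libraries without NRAS, so the low-count filter passed it only through that side, which favours both calls. The atypical receptors tested, Ackr1 (0.361 to 3.19 normalised CPM) and Ackr4 (0.473 to 1.78), passed in no comparison, with a lowest adjusted p of 0.153 and 0.205.

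**Figure D5:**
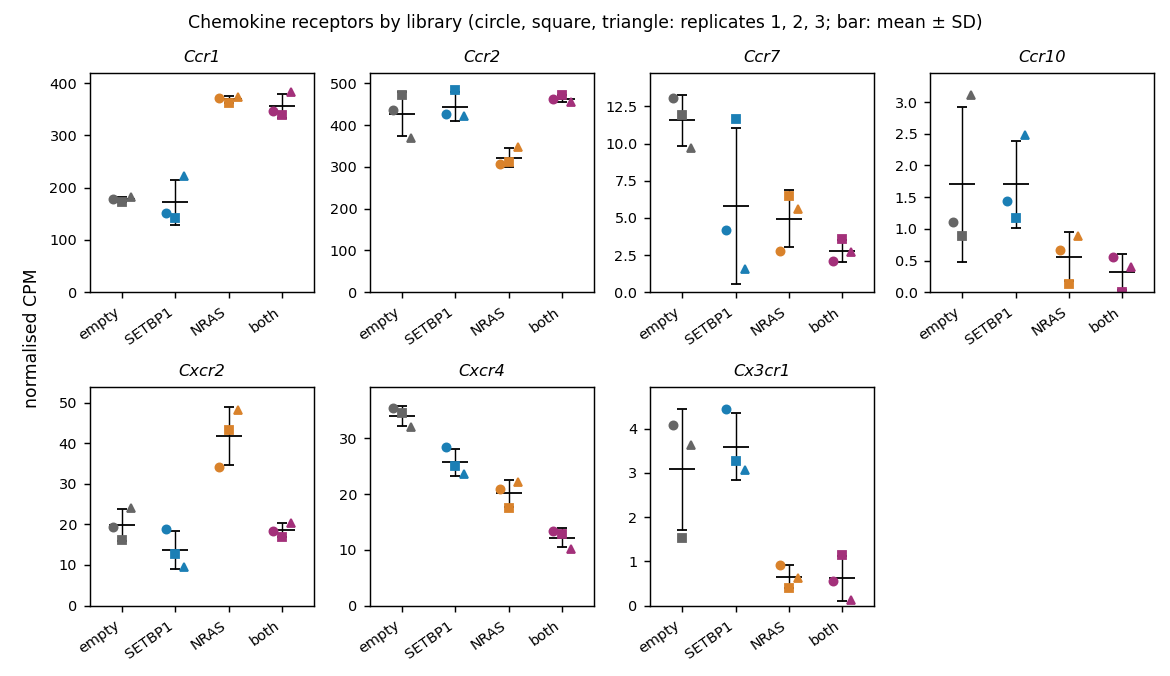
Normalised CPM (vertical axes, each from 0) of 7 of the 8 receptors past the threshold in at least 1 comparison, by library; symbols are replicates and bars the mean ± SD of 3 libraries, cut at 0. Ccr1 is higher and Cx3cr1 lower in the 6 libraries with NRAS, Cxcr2 is highest with NRAS alone (34.1 to 48.2), and Cxcr4 falls from 32.1 to 35.5 in the empty group to 10.2 to 13.4 with both.

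Across the series, 9 of the 29 members tested had all 6 libraries with NRAS above the other 6, where 14.5% of all genes did, among them Ccl2, Ccl7, Ccl12, Ccl9, Ccl3, Ccl4, Cx3cl1 and Ccr1. The reverse held for 3 members, Cxcr4, Ccr10 and Cx3cr1, where 12.8% of all genes did. Cx3cl1 reached 10 counts only in libraries with NRAS, and Ccr10 and Cx3cr1 only in libraries without it. The low-count filter therefore passed these genes only through the side where they were high, and their separation is in part set by that selection. Of the 19 ligands tested, 11 had their highest mean with both mutants and 0 their lowest. Of the 10 receptors tested, 2 had their highest mean with both mutants and 6 their lowest. The matching shares over all genes were not computed, so these counts cannot be set against other genes. The difference between ligands and receptors was not tested.

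Signalling downstream of chemokine receptors was followed in a list of 56 genes, of which 50 were tested. The list also holds Dpp4, Tpst1 and Tpst2, which modify chemokines or their receptors and do not signal downstream. With NRAS 12 were higher (17% of all genes) and 10 lower (15.5%), with SETBP1 2 higher (8.31%) and 10 lower (6.55%), and from NRAS to both 2 were higher (0.528%) and 1 lower (1.38%). The largest NRAS changes included 3 regulators of G protein signalling, which switch off receptor-activated G proteins, and Pik3r6, a regulatory subunit of PI3K gamma. Rgs16 went from 0, 0 and 0.405 normalised CPM in the empty libraries to 48.0, 61.7 and 83.9 with NRAS, too low in the empty group for a fold. Rgs1 rose by 2.08 with NRAS (SE 0.18, adjusted p 1.7e-06) and by a further 0.89 from NRAS to both (SE 0.16, adjusted p 0.0106). Rgs2 fell by 1.21 (SE 0.14, adjusted p 2.35e-05) and Pik3r6 fell by 1.51 (SE 0.18, adjusted p 2.32e-05). With SETBP1, Dpp4, a peptidase that trims and inactivates several chemokines, fell by 1.20 (SE 0.30, adjusted p 0.0203), and the kinase Jak2 fell by 1.02 (SE 0.14, adjusted p 0.00147). Tpst1, which sulfates chemokine receptors, and Was, an actin regulator, each rose by 0.75 (adjusted p 0.00614 and 0.0342); without SETBP1 replicate 3 Was changed by 0.38 (adjusted p 0.0646). From NRAS to both, Dpp4 fell by 1.71 (SE 0.35, adjusted p 0.0246) and Rgs18 rose by 0.44 (SE 0.10, adjusted p 0.0309).

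Chemokine genes whose symbols fall outside the rule, and chemokine-like genes, made a list of 12, of which 10 were tested. With SETBP1, the platelet chemokine Pf4 rose by 1.51 (SE 0.32, adjusted p 0.0105), from 71.7, 74.3 and 84.3 normalised CPM to 138, 148 and 369; without SETBP1 replicate 3 it rose by 0.90 (adjusted p 0.00143). Its neighbour Ppbp, a Cxcr2 ligand of platelets, rose by 1.11 (SE 0.29, adjusted p 0.022; 0.61 without that library), and the cytokine Mif rose by 0.53 (SE 0.10, adjusted p 0.00578), while Cmtm6 fell by 0.51 (SE 0.14, adjusted p 0.03). The summed megakaryocyte and platelet markers, a list that holds Pf4 and Ppbp, were at 196 to 234 in the empty group and 279 to 603 with SETBP1; their part in the result was not tested. With NRAS, Mif rose by 0.43 (SE 0.10, adjusted p 0.0043) and Cmtm7 fell by 0.65 (SE 0.10, adjusted p 0.000174), and from NRAS to both 0 of 10 passed in edgeR's test (1.91% of all genes), 3 of them with an unadjusted p under 0.05.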

How the data were processed

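Gene counts were measured by RNA sequencing of total RNA in 12 libraries, 3 per group, prepared with SMART-Seq, which amplifies ultra-low RNA input. The authors deposited whole-number counts per gene symbol, not normalised; per the submitters' processing notes the build was mm10 (GRCm38), and STAR and DESeq2 were named without versions. The counting tool, annotation, strand and multimapping rules are not given in the sources used here. Counts were scaled by trimmed mean of M-values (TMM) factors, filtered by filterByExpr (minimum count 10, minimum total 15) to 10993 genes holding 99.9% of counts, and tested with edgeR 4.0.16 (R 4.3.3) by quasi-likelihood F tests over 4 group means in 12 libraries. P-values were two-sided, adjusted by Benjamini-Hochberg over all genes tested, with a threshold of 0.05. CPM called normalised used the TMM factors; sums over a list are of these values, and shares are of raw counts. Totals of 7085894 to 8864919 counts set the depth, so members with a few counts are imprecise. Replicates of a group differed by more than counting noise (chi-square per degree of freedom 2.69 to 40.2).

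The members and gene lists were chosen with earlier results of these data known. Every member past the threshold in any comparison, or with a mean of at least 50 counts in its highest group, is named with its values. 1 receptor is counted among the members but its values are not reported here. Members tested that met neither are given by range, and members under the filter are named from 10 counts in a library. From other lists up to 4 genes per comparison are named, those called with the largest change. Symbols matched GENCODE M21 (GRCm38) for 60 of 61 members, which gave positions, exon lengths and shared 50-base stretches, and RefSeq promoters (GRCm38.p6) for 46 of 61. The steps were tested on simulated data. Alternatives were DESeq2 1.42.0, limma-voom (limma 3.58.1), other scalings and filters, only the groups compared, a replicate block, and leaving out each library.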

Additional observations from a re-analysis of the deposited data

How the results depend on the processing

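Across 1405 fits of a called member under another setting, 1340 kept the call, 65 lost it and 0 changed direction. For SETBP1 against empty, NRAS against empty, both against SETBP1 and both against empty, the counts of members stayed within 1.5 times of 12, 17, 18 and 19 in every setting run; leaving out 1 library gave 10 to 17, 16 to 18, 14 to 20 and 16 to 20, and fitting only the groups compared gave 8 for SETBP1 against empty. For both against NRAS, 5 members passed, against 12 (10 higher and 2 lower) with only the groups compared. Leaving out 1 library gave 2 (without NRAS replicate 2, NRAS replicate 3 or SETBP1+NRAS replicate 1) to 13 (without SETBP1 replicate 3). The interaction gave 0 in edgeR, 2 in DESeq2 (Ccl3 and Ccl24), 0 in limma-voom, and 0 to 4 when 1 library was left out, with 2 without SETBP1 replicate 1, 1 without SETBP1 replicate 2 and 4 without SETBP1 replicate 3. DESeq2 and limma-voom used all 12 libraries, while fits without a library or with only the groups compared used smaller sets. The cause of the differences was not tested. The share of all genes called also moved with the setting. Where that share is not given, a count of members cannot be set against other genes.

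Samples with the same replicate number did not deviate together (1 of 18 correlations over 0.1, from -0.127 to 0.124), so the numbers were not taken to pair them. With the replicate block the counts were 12, 19, 4, 18 and 19 in the 5 comparisons above, in the order SETBP1 and NRAS against empty, both against NRAS, SETBP1 and empty, and 1 for the interaction (Ccl24). Scaling by library size alone moved the median of all genes to -0.10 for NRAS against empty and -0.13 for both against empty. Depth limited Ccl8, Cx3cl1, Ccr10 and Cx3cr1, each under 5 normalised CPM in every library. Ccl8 and Cx3cl1 reached 10 counts only in libraries with NRAS, and Ccr10 and Cx3cr1 only in libraries without it. The filter thus passed each through the side where it was high, which favours their calls between those sides.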
